A study of Mus musculus with 6 samples.

Results

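Complement genes were read in RNA-seq data of the renal cortex. The 9 genes, chosen by symbol as components and regulators of the complement system, are C3, C4b, C2, Cfb, Cfd, Cfi, Cd55, Cd59a and Serping1. All 9 were found among the 24346 genes of every library, and 8 of them were among the 12248 genes with at least 1 FPKM (fragments per kilobase of transcript, scaled to the size of the library) in at least 3 libraries, which were tested. Cfd fell under that filter. The samples came from 6 C57BL/6 mice that all received, for 8 weeks, a steatohepatitis-inducing diet that the labels abbreviate HF/HC/HS/BA and describe as rich in fat, cholesterol and bile salt. For 3 of the mice, labelled NASHTofo, the feed also held tofogliflozin, a drug that blocks glucose reuptake in the proximal tubule through the transporter SGLT2. The other 3, labelled NASH, had the same feed without the drug. The labels used here state no sex, age at sampling or drug dose. No animals on ordinary chow enter the comparison, so each difference is one between drug and no drug on top of the diet.

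Complement is a cascade of plasma and membrane proteins that tags and lyses targets. The classical and lectin pathways cleave C4 and C2 to build a C3 convertase, and the alternative pathway builds a second convertase from C3b and factor B, which factor D cleaves. Both cleave C3, the component on which all routes meet, and regulators then dismantle the convertases or block the terminal pore. The liver makes most circulating complement, while kidney tubule cells are known to express several of these genes themselves, C3 and factor B among them.

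The 250 bases before the annotated start are printed for C3, Cd59a and Cd55, the genes with an entry in the promoter table that differed between the groups at an unadjusted p under 0.05. They are RefSeq sequences of build GRCm38.p6, written 5′ to 3′ on the strand of the gene. Of the 9 genes, 4 matched an entry of the promoter table, the fourth being Cfd. Capitals mark every match, on either strand, to TTNNGNAA (C/EBP), TTCNNNGAA (STAT), the NF-kB motif (GGG and CC with 5 bases between), the interferon-stimulated response element (GAAA and GAAA with 2 bases between) or the PPAR element (AGGTCA and AGGTCA with 1 base between). Matches of the same motif or of different motifs may overlap.
C3, chr17:57228137-57228386, minus strand: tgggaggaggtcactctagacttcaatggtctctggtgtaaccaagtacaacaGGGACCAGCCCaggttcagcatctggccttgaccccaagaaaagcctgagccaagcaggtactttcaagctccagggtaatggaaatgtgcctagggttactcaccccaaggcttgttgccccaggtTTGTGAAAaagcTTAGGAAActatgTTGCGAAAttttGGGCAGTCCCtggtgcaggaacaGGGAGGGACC
Cd59a, chr2:104095551-104095800, plus strand: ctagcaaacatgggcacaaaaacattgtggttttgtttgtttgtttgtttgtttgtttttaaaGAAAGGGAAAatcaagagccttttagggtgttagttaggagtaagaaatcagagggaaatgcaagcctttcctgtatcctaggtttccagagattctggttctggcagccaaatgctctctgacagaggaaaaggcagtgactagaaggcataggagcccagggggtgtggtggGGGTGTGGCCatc
Cd55, chr1:130462745-130462994, minus strand: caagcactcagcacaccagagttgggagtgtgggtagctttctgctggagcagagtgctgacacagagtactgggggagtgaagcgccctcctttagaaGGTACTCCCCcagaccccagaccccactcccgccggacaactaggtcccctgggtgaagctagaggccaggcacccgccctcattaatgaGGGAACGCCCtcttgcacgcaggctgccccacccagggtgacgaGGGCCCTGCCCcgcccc
The C3 window held TTNNGNAA at 3 places, all within 70 bases of the start, and the NF-kB motif at 4 places. The Cd55 window held the NF-kB motif at 4 places, and the Cd59a window held it at 1 place together with 1 match to the interferon-stimulated response element. Some NF-kB places overlap on opposite strands: 197 to 188 and 196 to 187 bases before the C3 start, and 17 to 8 and 16 to 7 before that of Cd55. Among 32851 windows of the same length, 36.8% held TTNNGNAA and 2.61% held it at 3 or more places. The shares were 45.8% for the NF-kB motif (10.7% at 3 or more places), 2.98% for the interferon-stimulated response element, 7.02% for TTCNNNGAA and 0.0335% for the PPAR element. STAT and PPAR had no match in the 3 windows. A match describes letters only and no binding was measured.

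Levels differed widely between the 9 genes. On the FPKM scale, which allows for transcript length, Cfb stood apart at 205 to 228 FPKM over the 6 libraries and alone made up 66.5% to 72.9% of the summed FPKM of the 9. Its mean lay above that of 98.1% of all genes listed. Next came Cd59a (20.9 to 26.4 FPKM), C2 (16.9 to 24.5), Serping1 (12.1 to 26.5), C4b (6.30 to 23.0), C3 (3.42 to 12.8) and Cd55 (4.29 to 7.52). The range of each of these genes overlapped that of the next, so their order is not fixed beyond the spread of the libraries. Cfi followed at 1.37 to 3.58 FPKM, with no overlap with Cd55, and Cfd came last with a median of 0.215 FPKM. From the spacing of the lowest FPKM values, the libraries were placed at about 7700000 to 9910000 fragments. On that estimate and the longest annotated transcript, Cfb rested on about 4380 to 5690 fragments per library, C3 on 145 to 570 and Cfi on 22.0 to 73.8.

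**Figure D1:**
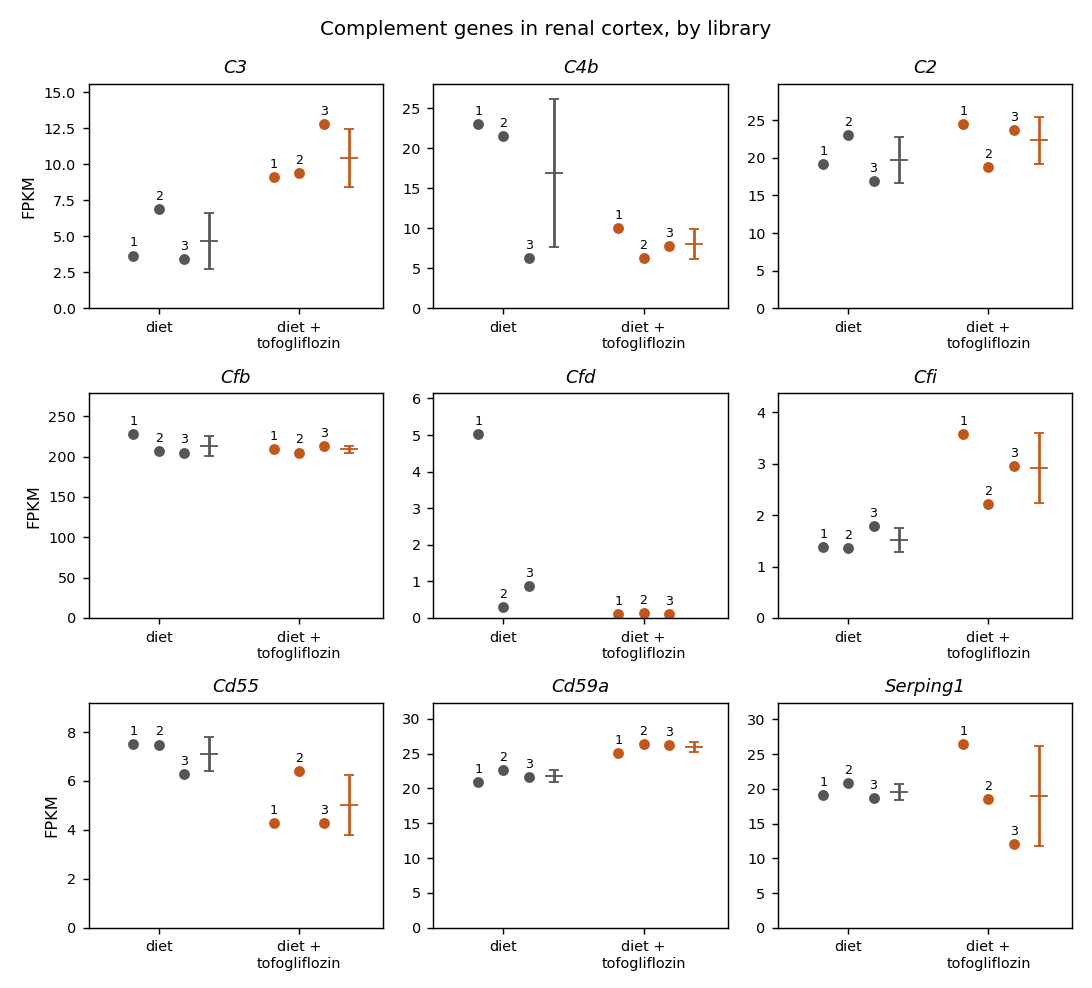
FPKM (linear axes from 0, 1 panel per gene) of the 9 complement genes in 3 diet libraries and 3 diet plus tofogliflozin libraries. Points are libraries with their replicate number, and the bar beside each group is the mean ± SD (not drawn for Cfd). C3, Cfi and Cd59a lie higher in all 3 tofogliflozin libraries, while C4b is high in diet replicates 1 and 2 and Cfd in diet replicate 1 alone.

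The comparison asks which complement genes differed in the renal cortex of mice given tofogliflozin from that of mice on the diet alone. With the drug, mean C3 was 2.24 times and mean Cfi 1.93 times its value on the diet, Cd59a was 19.1% higher and Cd55 stood at a ratio of 0.704. Cfb, the most abundant of the 9, stood at a ratio of 0.98. None of the 8 tested genes passed the threshold (limma on log2(FPKM + 1), two-sided, Benjamini-Hochberg adjusted p under 0.05 over all 12248 genes), which 0.253% of all genes did. At an unadjusted limma p under 0.05, C3, Cfi and Cd59a were higher and Cd55 was lower, 4 of 8, beside 13.1% of all genes tested (6.70% higher and 6.39% lower). In 3 of the 8 the groups did not overlap, all higher with the drug, beside 18.5% of all genes (9.63% higher and 8.86% lower). The median log2 change of the 8 was 0.07, and that of all genes tested was 0. The genes were named with earlier results of these data known, so these counts are a description.

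C3, the component that every pathway cleaves, was at 3.66, 6.91 and 3.42 FPKM in diet replicates 1 to 3 and at 9.12, 9.41 and 12.8 FPKM in tofogliflozin replicates 1 to 3, the order kept for the genes that follow. Every tofogliflozin library lay above every diet library, and diet replicate 2 was the nearest of the diet libraries. The means were 4.66 ± 1.95 and 10.4 ± 2.02 FPKM (SD, n = 3 per group), a ratio of 2.24. On the log2(FPKM + 1) scale the difference was 1.05 ± 0.23 (SE; 95% interval 0.53 to 1.57), with a limma adjusted p of 0.117 and an unadjusted p of 0.00162. Without diet replicate 2 it was 1.32 and passed (limma adjusted p = 0.0217). With the other libraries left out in turn it ran from 0.90 to 1.13 and did not pass. With array weights, which give less weight to libraries far from the fit, it was 1.17 and passed (limma adjusted p = 0.0385).

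Of the classical and lectin pathway, C4b encodes the component whose cleavage opens the convertase. It was at 23.0, 21.5 and 6.30 FPKM on the diet and at 10.02, 6.30 and 7.82 FPKM with tofogliflozin. Diet replicates 1 and 2 lay above all tofogliflozin libraries, but diet replicate 3 lay among them, so the groups overlapped. The log2 difference of -0.82 ± 0.42 (SE; 95% interval -1.78 to 0.14) did not pass (limma adjusted p = 0.449). Without diet replicate 3 it was -1.38 (limma adjusted p = 0.0308), and without diet replicate 1 or 2 it was -0.52 or -0.57 (adjusted p = 0.767 and 0.585). C4a, the sex-limited relative of C4b in the same gene cluster, contains 35.2% of the 50-base stretches of the C4b transcript, so reads can be shared between them. C4a, named outside the rule for this reason, was listed at 0.121 to 0.909 FPKM. C2, the protease partner of C4, was at 19.2, 23.0 and 16.9 FPKM on the diet and at 24.5, 18.8 and 23.7 FPKM with the drug. The C2 groups overlapped, and the log2 difference of 0.17 (95% interval -0.13 to 0.48) did not pass (limma adjusted p = 0.627).

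Of the alternative pathway, Cfb encodes factor B, the protease subunit of its convertase. It was at 228, 207 and 205 FPKM on the diet and at 209, 205 and 213 FPKM with tofogliflozin. The groups overlapped with means of 213 ± 12.8 and 209 ± 3.88 FPKM (SD, n = 3 per group), and the highest library was 1.11 times the lowest. The log2 difference was -0.03 (95% interval -0.20 to 0.14; limma adjusted p = 0.909), and 0.02 without diet replicate 1, so its sign depends on that library. Over the 6 libraries Cfb had a coefficient of variation of 4.16%, beside a median of 10.7% over all genes tested, of which 4.07% had a smaller one. Those genes were not matched to Cfb for level, and the part of its high level in this rank was not tested. Cfb and C2 lie head to tail on the minus strand of chromosome 17 with 85 bases between them. An annotated read-through gene, Gm20547, contains 81.4% of the 50-base stretches of the Cfb transcript and 58.0% of those of C2. Gm20547 is not itself among the genes listed, so it has no value of its own here. No label used here tells how reads from the shared stretches were assigned.

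Cfd encodes factor D (adipsin), the protease that cleaves factor B, and is best known as a product of fat cells. It was at 5.03, 0.295 and 0.870 FPKM on the diet and at 0.108, 0.136 and 0.117 FPKM with tofogliflozin. The groups did not overlap, but only diet replicate 1 exceeded 1 FPKM, so the gene was under the filter. The tofogliflozin values correspond to about 0.941 to 0.985 fragments each and the diet values to about 35.7, 2.09 and 6.61 fragments. Without the filter its log2 difference was -1.13 and did not pass (limma adjusted p = 0.50, unadjusted p = 0.0691). Of 10 fat-cell markers, 9 were above 0 in a library. Of these 9, 7 had their highest value in diet replicate 1, the library with the most Cfd, and none of the 7 reached 1 FPKM. The other 2, Lipe, a lipase gene, and Plin4, which encodes a lipid droplet protein, were the most abundant of the list and highest in tofogliflozin replicate 3, Plin4 at 1.24 FPKM there and 1.01 FPKM in diet replicate 1. Adipoq, which encodes adiponectin, was at 0.455 FPKM there, at 0.112 FPKM in tofogliflozin replicate 2 and at 0 in the other 4 libraries, and Lep, which encodes leptin, was at 0 in all 6. Summed over the 10 markers the level was 12.1 to 16.9 FPKM on the diet and 13.1 to 17.7 FPKM with the drug, highest in tofogliflozin replicate 3, and Lipe alone gave 11.4 to 16.03 FPKM. The part of fat-cell RNA in the Cfd values was not tested.

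**Figure D2:**
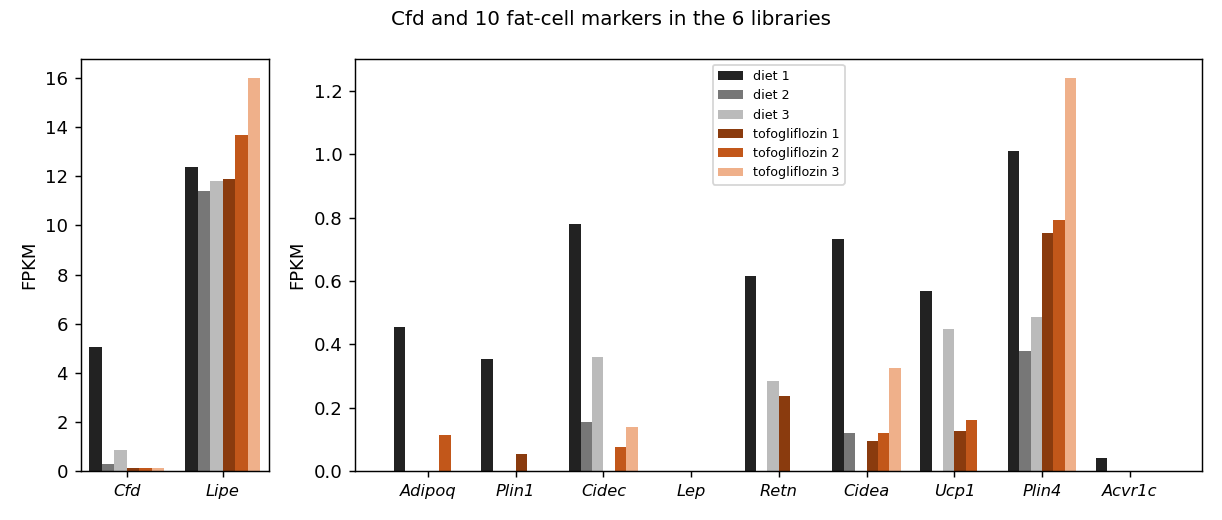
FPKM (bars from 0, with a separate axis for each panel) of Cfd and Lipe (left) and of the other 9 fat-cell markers (right) in each of the 6 libraries. Cfd and 7 markers are highest in diet replicate 1, at 5.03 FPKM for Cfd and 0.455 FPKM for Adipoq, while Lipe and Plin4 are highest in tofogliflozin replicate 3 and Lep is at 0.

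The regulators had changes on both sides of 0, and none passed. Cfi encodes factor I, the plasma protease that inactivates C3b and C4b, and was at 1.38, 1.37 and 1.78 FPKM on the diet and at 3.58, 2.22 and 2.95 FPKM with tofogliflozin. The groups did not overlap, and the means of 1.51 ± 0.235 and 2.92 ± 0.680 FPKM (SD, n = 3 per group) stood in a ratio of 1.93. The log2 difference was 0.63 ± 0.15 (SE; 95% interval 0.28 to 0.99), with a limma adjusted p of 0.155. Cd59a, which encodes the membrane inhibitor of the terminal pore, was at 20.9, 22.6 and 21.7 FPKM on the diet and at 25.1, 26.4 and 26.2 FPKM with the drug. The libraries within each group were close, and the groups did not overlap although the means differed by only 19.1%. The log2 difference of Cd59a was 0.24 ± 0.07 (SE; 95% interval 0.09 to 0.40; limma adjusted p = 0.202). Its neighbour Cd59b, a copy of the gene named outside the rule, contains 3.98% of its 50-base stretches and was at 0.610 to 3.15 FPKM.

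Cd55, or decay-accelerating factor, which dissociates convertases on the cell surface, was at 7.52, 7.49 and 6.30 FPKM on the diet and at 4.29, 6.42 and 4.30 FPKM with tofogliflozin. Tofogliflozin replicate 2 lay above diet replicate 3, so the groups overlapped, while the other 2 tofogliflozin libraries lay below all diet libraries. The log2 difference was -0.45 ± 0.15 (SE; 95% interval -0.79 to -0.11; limma adjusted p = 0.249, unadjusted p = 0.0156). Its unadjusted p rose above 0.05 without diet replicate 1 (0.0504), tofogliflozin replicate 1 (0.0568) or tofogliflozin replicate 3 (0.0572). Cd55b, its testis-expressed copy, contains 10.9% of its 50-base stretches and was listed at 0 in all 6 libraries. An antisense gene, Gm16083, overlaps 102 bases of Cd55 exons, and Zbtb12 overlaps 161 bases of C2 exons on the other strand. Without a statement that strand was used in counting, reads from such partners cannot be told apart. Serping1 encodes the C1 inhibitor, which stops the proteases of the classical and lectin pathways. It was at 19.1, 20.9 and 18.7 FPKM on the diet and at 26.5, 18.5 and 12.1 FPKM with the drug. The diet libraries were close together, and the tofogliflozin libraries reached both above and below them. The log2 difference of Serping1 was -0.10 (95% interval -0.63 to 0.43; limma adjusted p = 0.895). It was -0.36 without tofogliflozin replicate 1 and 0.17 without tofogliflozin replicate 3, so its sign depends on tofogliflozin replicate 3.

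**Figure D3:**
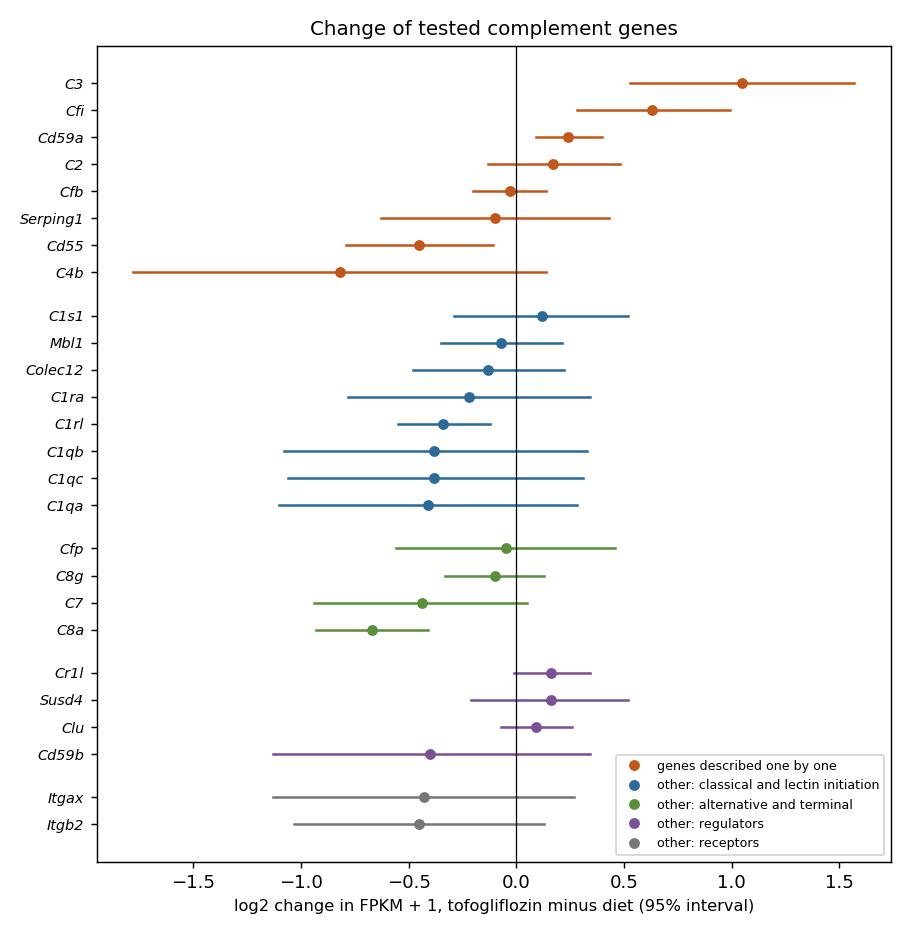
Log2 change in FPKM + 1 (tofogliflozin minus diet, n = 3 libraries per group) of the 8 tested genes described one by one and of 18 of the 19 other complement genes tested. Points are limma estimates and lines their 95% intervals. Intervals clear of 0 are those of C3, Cfi, Cd59a, Cd55, C1rl and C8a, and none of these genes passed after adjustment over all genes.

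The rest of the pathway was read from a list of 47 genes, of which 46 were in the files and 19 were tested. The other 27 were under the filter, and 6 of them were at 0 in all libraries. None of the 19 passed over all genes tested. At an unadjusted limma p under 0.05, 0 were higher and 2 lower, a share near the 13.1% of all genes tested in either direction (6.39% lower), and the median log2 change was -0.22. C8a, which encodes a chain of the terminal pore component C8, was at 8.91, 7.01 and 8.50 FPKM on the diet and at 5.09, 4.93 and 4.16 FPKM with tofogliflozin. Its groups did not overlap, and its log2 difference was -0.67 ± 0.11 (SE; limma adjusted p = 0.0682). It passed without diet replicate 2 (adjusted p = 0.0359), with a robust trend (0.0480) and with array weights (0.0342). C8g, which encodes another chain of C8, was at 20.8 to 22.5 FPKM on the diet and 17.8 to 23.2 FPKM with the drug and is named outside the rule, as are C8b, at 0 in all libraries, and Hc, the gene of C5, at 0 to 0.0881 FPKM. C1rl, a relative of the C1r protease, was at 12.6, 10.4 and 11.5 FPKM on the diet and at 8.52, 9.63 and 8.52 FPKM with the drug (log2 difference -0.34; limma adjusted p = 0.201).

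Of the 8 tested genes of classical and lectin initiation, 7 had a change below 0. The 3 chains of C1q, a product of macrophages named here outside the rule, were highest in diet replicate 2. C1qa was at 35.96, 53.6 and 22.0 FPKM on the diet and at 27.3, 32.7 and 19.6 FPKM with tofogliflozin, with overlapping groups (limma adjusted p = 0.603). Macrophage markers were also highest there, 11 of 13 tested having their top value in diet replicate 2. Their summed level was 125 to 327 FPKM on the diet and 112 to 143 FPKM with the drug, and their part in the C1q values was not tested. Of these markers Csf1r, the receptor of a macrophage growth factor, and Lyz2, a lysozyme gene, were lower at an unadjusted limma p under 0.05 (log2 differences -0.45 and -1.34; limma adjusted p = 0.198 and 0.312). They were 2 of 13 tested, beside 13.1% of all genes tested in either direction (6.39% lower). Both tested neutrophil markers had a change above 0. Of these 2, S100a9 was higher at an unadjusted limma p of 0.0104 (limma adjusted p = 0.223), beside 6.70% of all genes tested in that direction. Both tested lymphocyte markers had a change below 0, as had 2 of 3 tested urothelium markers, with 0 at an unadjusted limma p under 0.05. Of the 5 tested regulators outside the 9 genes, 4 had a change above 0 and none passed. Cr1l, or Crry, a membrane regulator of convertases in rodents, was at 26.3 to 29.7 FPKM on the diet and at 29.7 to 33.1 FPKM with the drug (log2 difference 0.16; limma adjusted p = 0.422). Clu, which encodes clusterin, was the most abundant of them at 103 to 121 FPKM (adjusted p = 0.631), and Susd4 lay at 1.21 to 2.16 FPKM (adjusted p = 0.726). The receptor genes Itgb2 and Itgax, the only 2 of 8 receptor genes tested, were lower by 0.45 and 0.43 on the log2 scale and did not pass (limma adjusted p = 0.501 and 0.594).

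Across libraries the 9 genes did not share one pattern. C4b, which lies in the class III region of the major histocompatibility complex on chromosome 17 (34728380 to 34743882 in build GRCm38, the build mm10 of the files), was high in diet replicates 1 and 2 and low in diet replicate 3, where interferon response and antigen presentation genes were low too. The match was not complete: C4b was as low in tofogliflozin replicate 2, at 6.30 FPKM, where these lists were near their mean (-0.08 and -0.18 on the log2 scale), and it was highest in diet replicate 1, while 28 of 30 interferon response genes were highest in diet replicate 2. Summed interferon response genes were at 547, 883 and 219 FPKM on the diet and at 348, 355 and 280 FPKM with tofogliflozin, and 24 of the 30 tested were lowest in diet replicate 3. All 7 tested genes of MHC class II presentation were lowest in diet replicate 3 as well and highest in diet replicate 2. Cd74, which encodes the chaperone of class II molecules, was at 3090, 3838 and 541 FPKM on the diet and at 1128, 1447 and 740 FPKM with the drug. None of the 30 or of the 7 passed, and the median log2 changes were -0.31 and -0.62. Cfb (34856374 to 34862518) and C2 (34862604 to 34898265) lie near C4b on the same strand. Between diet replicates 2 and 3, where the summed interferon response genes went from 883 to 219 FPKM, C4b went from 21.5 to 6.30 FPKM, C2 from 23.0 to 16.9 FPKM and Cfb from 207 to 205 FPKM. Since this is bulk tissue, fewer cells of a type and less RNA per cell cannot be told apart.

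**Figure D4:**
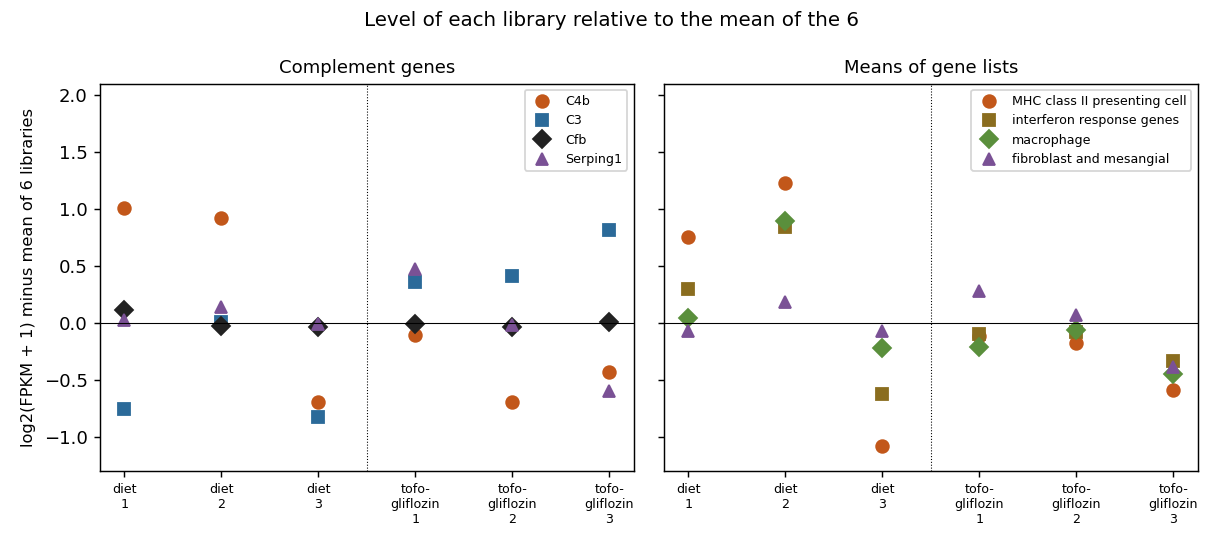
Log2(FPKM + 1) of each library minus the mean of the 6 libraries, for 4 complement genes (left) and as the mean over tested genes of 4 lists (right). C4b is at 1.01 and 0.92 in diet replicates 1 and 2 and at -0.70 in diet replicate 3, where the MHC class II list is at 0.75, 1.23 and -1.08, while Cfb stays within -0.04 to 0.11.

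Within the tofogliflozin libraries Serping1 was highest in replicate 1 and lowest in replicate 3, and several marker lists were also lowest in replicate 3. Not all of them followed its order, as summed macrophage markers were at 127, 143 and 112 FPKM in tofogliflozin replicates 1 to 3. Fibroblast and mesangial markers summed to 37.5, 30.7 and 20.4 FPKM in tofogliflozin replicates 1 to 3 and to 26.9 to 32.9 FPKM on the diet, and 7 of 8 tested were lowest in tofogliflozin replicate 3. Dcn, the proteoglycan decorin, was at 10.3, 7.80 and 5.44 FPKM in those 3 libraries. Endothelial markers summed to 251, 249 and 211 FPKM in those libraries, with 7 of 10 lowest in tofogliflozin replicate 3, and 8 of 13 macrophage markers were lowest there too. The part of any of these cells in the Serping1 values was not tested. Beside the higher values of C3, Cfi and Cd59a, markers of the collecting duct also had higher values with the drug. All 6 had a change above 0 (median 0.26) and none passed. In 4 of them, Aqp2, Aqp3, Hsd11b2 and Atp6v1g3, the groups did not overlap, beside 9.63% of all genes tested in that direction, and all 6 were lowest in diet replicate 1. They summed to 254 to 304 FPKM on the diet and 348 to 390 FPKM with the drug. Of 6 tested markers of injured tubules all had a change above 0 (median 0.15; 0 at an unadjusted limma p under 0.05), as had 6087 of all 12248 genes tested. The 4 others of that list were under the filter. With the drug, Havcr1 and Krt20 had higher means and Sox9 and Cd44 lower ones, with overlapping groups in each. The part of collecting duct and injured tubule cells in the complement values was not tested.

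The genes whose values over the 6 libraries ran closest to those of C3 were Gsta2, a glutathione transferase, Aldh1a1, a retinaldehyde dehydrogenase, and Mpzl2, an adhesion molecule. The measure was the root mean square difference of mean-centred log2(FPKM + 1) values, taken over 11556 tested genes with a name. It was 0.085 for Gsta2, which was at 154, 263 and 136 FPKM on the diet and at 352, 387 and 442 FPKM with tofogliflozin. For Aldh1a1 and Mpzl2 it was 0.20. Closest to C4b were Bst2, the interferon-induced membrane protein tetherin (0.26), H2-T23, a non-classical MHC class I gene (0.28), and Il18bp, a secreted inhibitor of IL-18 (0.28). Bst2 was at 71.3, 74.8 and 24.6 FPKM on the diet and at 41.8, 38.3 and 29.7 FPKM with the drug. These are a description over 6 libraries, with no test.

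The tissue carried the markers of its label. Slc34a1, the phosphate transporter of the proximal tubule, lay at 2128 to 2645 FPKM, and Umod, the uromodulin gene of the thick ascending limb, at 1454 to 1999 FPKM. In every pair of libraries the log2 values correlated at 0.980 to 0.990. Of 9 proximal tubule markers none passed, and 5 were at an unadjusted limma p under 0.05, beside 13.1% of all genes. Of these 5, Slc22a8 and Slc5a12 were higher (log2 differences 0.59 and 0.43) and Slc22a6, Slc7a13 and Slc22a7 were lower (-0.31, -0.26 and -1.83), with limma adjusted p from 0.0883 for Slc22a8 to 0.368 for Slc22a6. Of 6 markers of the loop of Henle and distal tubule, Pvalb and Calb1 were higher at an unadjusted p under 0.05 (limma adjusted p = 0.30 and 0.24). The median log2 change was 0.04 over 10 endothelial markers, with 0 at an unadjusted p under 0.05, and 0.06 over 6 podocyte markers, with 1, Podxl (limma adjusted p = 0.36). The part of these cell types in the complement values was not tested. In the GRCm38 annotation C3 spans 57203970 to 57228136 on chromosome 17, Cfi 129835884 to 129875332 on chromosome 3, Cd55 130439027 to 130462744 on chromosome 1 and Cfd 79890853 to 79892655 on chromosome 10. Cd59a spans 104095801 to 104115354 and Serping1 84765387 to 84775444 on chromosome 2. Each value is for a whole gene and does not tell exons or transcripts apart.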

How the data were processed

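Strand-specific mRNA libraries were made from column-purified total RNA, per the labels' protocols. The authors deposited FPKM values, 1 table per library with no counts. The submitters' processing notes name TopHat2 2.1.1, Bowtie2 2.2.8, SAMtools 0.1.18, Cuffdiff 2.2.1 and build mm10. Not given in the sources used here: which tool did what, the gene models, whether counting used strand and any scaling across samples. Upper quartiles were 10.5 to 10.6 FPKM in all libraries.

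Groups and replicate numbers came from the labels, 3 mice per group. The fit was limma 3.58.1 in R 4.3.3 on log2(FPKM + 1), a scale that understates the change of low genes, with a mean-variance trend. It covered genes that reached 1 FPKM in 3 or more libraries. It was also run on data simulated with normal noise on that scale, which cannot show how it does where real values depart from that. Standard errors and 95% intervals are limma's. Depth was estimated from values under 0.3 FPKM of genes with 1 transcript. Positions, overlaps and shared 50-base stretches came from GENCODE transcripts (GRCm38), motifs from RefSeq windows. Figures used matplotlib 3.10.9 in Python 3.11.15. The rule for named genes was the 9, and from each list those at an unadjusted p under 0.05 or else up to 4 of highest mean. It was not followed throughout: fewer or none are named from some marker lists, and Slc34a1, Umod, Adipoq and Lep are named outside it as defining markers. The genes and lists were chosen with earlier results of these data known. The 15 alternatives were another pseudocount, 2 filters, 2 scalings, 2 other trends, array weights, the replicate block and each library left out. The values of 1 other complement regulator are not reported here.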

Additional observations from a re-analysis of the deposited data

How the results depend on the processing

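Of the 9 genes, 4 were at an unadjusted limma p under 0.05, and the count was 3 to 5 with each library left out in turn, 3 with a filter of 5 FPKM (which removes Cfi) and 5 with the replicate block (C4b, unadjusted p = 0.0391). The labels do not say whether replicate numbers pair mice. Deviations of same-numbered libraries correlated at -0.05, -0.06 and 0.05, which cannot decide this with 3 mice per group. The block gave 26 genes past the adjusted threshold beside 31 without it. C3, C4b, C2, Cd55, Cd59a, C1rl and C8a kept their sign in 15 of 15 alternatives and Cfi in 14 of 14, while Cfb and Serping1 kept it in 14 of 15 each (with each library left out -0.06 to 0.02 for Cfb, the 0.02 without diet replicate 1, and -0.36 to 0.17 for Serping1, the 0.17 without tofogliflozin replicate 3, none passing). Cfd has a fit only without the filter. Of the other complement genes, 2 were at an unadjusted p under 0.05. The count was 3 without the filter or with array weights and 6 with the replicate block. It was 2 to 8 with each library left out, the 8 without diet replicate 3. The share of all genes at an unadjusted limma p under 0.05, 13.1% in the main fit, was not counted for any alternative. These counts are therefore a description. Over all genes, 31 passed after adjustment, 1 without the filter, 20 with a filter of 5 FPKM, 47 with upper-quartile scaling, 61 with a robust trend, 123 with array weights, and 2 to 66 with each library left out (2 without tofogliflozin replicate 3, 66 without diet replicate 2). The cause was not tested. With 3 mice per group and FPKM without counts, counting error could not be separated from the spread between mice, and Cfi and Cfd rest on the fewest fragments.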

Other observations

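Genes of the acute phase response, which the liver raises in inflammation together with C3, were read beside the complement genes. Of 12, 6 were tested and all 6 had a change above 0 (median log2 change 0.44), 4 of them at an unadjusted limma p under 0.05, beside 6.70% of all genes tested in that direction, and none after adjustment. Cp, the copper carrier ceruloplasmin, was at 9.45, 12.8 and 11.8 FPKM on the diet and at 19.4, 17.6 and 18.4 FPKM with tofogliflozin (limma adjusted p = 0.068). Fgg, which encodes the fibrinogen gamma chain, was at 6.65, 6.63 and 10.2 FPKM on the diet and at 17.3, 10.3 and 13.4 FPKM with the drug (limma adjusted p = 0.201). Fga and Fgb, the other fibrinogen chains, differed by 0.46 and 0.41 on the log2 scale (limma adjusted p = 0.232 and 0.308). Saa1, Saa2 and Orm1 were at 0 in all 6 libraries.

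Of 16 tested receptors, cytokines and transcription factors known to act on complement genes, only Cebpb and Ifngr1 were at an unadjusted limma p under 0.05, a share near the 13.1% of all genes tested, and none passed after adjustment. Cebpb, the gene of C/EBP beta, was at 12.8, 4.97 and 13.3 FPKM on the diet and at 15.5, 19.5 and 19.8 FPKM with tofogliflozin, with groups that did not overlap (limma adjusted p = 0.288). Ifngr1, a chain of the interferon gamma receptor, was at 22.9, 23.2 and 21.6 FPKM on the diet and at 20.8, 20.3 and 18.4 FPKM with the drug (limma adjusted p = 0.376). Of the 4 others, under the filter and not tested, Il6 was at 0 in all libraries. Ifng was at 0.214 to 0.467 FPKM on the diet and 0 to 0.0901 FPKM with the drug. Tnf was at 0.167 to 0.644 and 0 to 0.125 FPKM, and Socs3 at 0.651 to 1.15 and 0.539 to 0.825 FPKM.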
